A study of Mus musculus with 4 samples.

Results

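The Ifitm family of interferon-inducible transmembrane protein genes was followed in cultured mouse CD4 T cells. Its members, Ifitm1, Ifitm2, Ifitm3, Ifitm6 and Ifitm10, are 5 of the 52636 genes in a table of read counts from 4 libraries. They were chosen because the family's counts scaled to library size (CPM) differed between the groups of this same experiment. The differences between groups in their levels are therefore given as a description, with no test. The libraries came from spleen naive CD4 T cells of C57BL/6 mice kept for 3 days in medium that favours T follicular helper (Tfh) cells. IL-6 and IL-21 were added at 10 ng/ml, with blocking antibodies to IL-4 and IFN-γ at 10 µg/ml and to TGF-β at 20 µg/ml. The groups were wild-type mice and E4BP4-cKO mice, the latter carrying a conditional knockout of E4BP4, a basic leucine zipper transcription factor encoded by Nfil3, with 2 libraries in each. The age and sex of the mice, the Cre driver, the deleted exons and whether the replicates were separate animals are not stated in the labels. Errors measure the spread between these libraries, whose sex-linked reads differed within each group, as given below.

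IFITM proteins are small membrane proteins that share the CD225 domain and limit the entry of enveloped viruses by acting on the membrane at the point of fusion. IFITM3 and IFITM2 sit mostly in endosomes and lysosomes, while IFITM1 sits largely at the cell surface. Interferons induce several of the genes through interferon-stimulated response elements (ISRE) and STAT sites near their start, and T cells also express them without infection.

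Ifitm2, Ifitm1, Ifitm3 and Ifitm6 lie beside each other on chromosome 7, and Ifitm10 lies farther along the same chromosome. In the mm10 build, Ifitm2 spans chr7:140954837-140955987 on the minus strand and Ifitm1 spans chr7:140967221-140969825 on the plus strand. Ifitm3 spans chr7:141009586-141010770, Ifitm6 spans chr7:141015699-141017924 and Ifitm10 spans chr7:142325837-142373753, all on the minus strand. The longest coding frames in the GENCODE M21 annotation hold 106 codons in Ifitm1, 144 in Ifitm2 and 137 in Ifitm3, stop codons left out. Those of Ifitm6 and Ifitm10 hold 124 and 201. The Ifitm10 frame was not required to begin with a start codon, so it may be incomplete. Coding sequences were 80.6% identical between Ifitm1 and Ifitm3, 79.9% between Ifitm2 and Ifitm3 and 78.0% between Ifitm1 and Ifitm2. Ifitm6 was 62.4% to 67.2% identical to these 3 genes.

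Likeness of this degree touches the counts of some members more than others. Stretches of 50 bases found exactly in the exons of another gene made up 48.5% of the Ifitm2 exon sequence, 10.02% of Ifitm3, 5.02% of Ifitm1, 3.51% of Ifitm10 and 0% of Ifitm6. With the other Ifitm genes alone the share was 3.30% for Ifitm2, 5.56% for Ifitm3 and 1.42% for Ifitm1. Most of the Ifitm2 share came from the readthrough gene Gm45717, which overlaps 268 of the 655 exon bases of Ifitm2 on the same strand and had 0 counts in all 4 libraries. No source used here says how reads that fit several genes were handled, and the level of Ifitm2 is less certain than those of Ifitm1 and Ifitm3.

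The sequence before each start is shown because Ifitm1, Ifitm2 and Ifitm3 differed in level as described further on, while Ifitm6 was close to silent. RefSeq windows of 250 bases before to 50 after the start (GRCm38.p6) were searched on both strands for an ISRE core, GAAA and GAAA with any 2 bases between them, a STAT site, TTCNNNGAA, and an NFIL3 site, TTANGTAA. All 5 members were found in the RefSeq table. The sequences below are the 120 bases before the GENCODE exon that begins at or shortly before the RefSeq start, in the direction of transcription, except the last, which is a site in the first bases of Ifitm3. Capitals mark motif matches.
Ifitm1, chr7:140967908-140968027, plus strand: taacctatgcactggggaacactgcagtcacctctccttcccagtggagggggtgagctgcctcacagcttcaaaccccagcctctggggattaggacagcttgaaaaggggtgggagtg
Ifitm2, chr7:140955988-140956107, minus strand: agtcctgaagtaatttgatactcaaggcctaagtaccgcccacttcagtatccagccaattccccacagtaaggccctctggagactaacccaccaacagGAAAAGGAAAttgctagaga
Ifitm3, chr7:141010771-141010890, minus strand: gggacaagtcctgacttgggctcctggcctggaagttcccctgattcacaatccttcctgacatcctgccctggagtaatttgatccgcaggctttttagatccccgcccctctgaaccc
Ifitm6, chr7:141016909-141017028, minus strand: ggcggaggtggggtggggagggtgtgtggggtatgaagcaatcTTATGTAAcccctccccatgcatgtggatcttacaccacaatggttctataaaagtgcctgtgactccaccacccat
Ifitm3 site, chr7:141010716-141010742, minus strand: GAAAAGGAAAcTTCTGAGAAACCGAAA

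Ifitm2 and Ifitm3 held the ISRE core, and the windows of Ifitm1, Ifitm10, Ifitm5 and Ifitm7 held none of the 3 motifs. The RefSeq starts searched for Ifitm1 (chr7:140968076) and Ifitm6 (chr7:141016892) lie inside the GENCODE bounds of these genes. Those bounds begin farther upstream, at chr7:140967221 and chr7:141017924, and the sequence before them was not searched. A lack of motifs therefore holds for these windows only. Positions are counted from the RefSeq start, whose first base is 1. In Ifitm2 the ISRE core lay at -46 to -37. In Ifitm3 ISRE cores lay at 3 to 12 and at 20 to 29, and a STAT match at 14 to 22 overlapped the second of them. In Ifitm6 the NFIL3 match lay at -93 to -86, and a STAT match at -10 to -2, which falls in the GENCODE exon and so is not in the bases shown. Among all 32851 RefSeq windows, 3.44% held the ISRE core, 8.30% the STAT site and 2.32% the NFIL3 site. Over the part that could be aligned, the windows of Ifitm2 and Ifitm3 were 64.5% identical, against 49.3% to 57.4% for the other pairs among Ifitm1, Ifitm2, Ifitm3, Ifitm5, Ifitm6 and Ifitm7. A match is a description of letters, and no binding was measured.

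The libraries held 19057077 to 26579592 counted reads, so 1 count stood for 0.0385 to 0.0546 CPM. Nfil3, the gene named as deleted, ran against the labels, with counts of 4649 and 3965 in the E4BP4-cKO-labelled libraries and 290 and 377 in the wild-type-labelled ones. Reads from outside a deleted part would still be counted, but the higher level in the libraries labelled knockout means that no direction here can be read as loss of E4BP4. Xist was abundant in 1 library of each group (21517 and 28571 counts) and at 1 and 17 counts in the others. Y-linked genes were read in wild-type replicate 2 alone, so E4BP4-cKO replicate 1 had neither. Libraries of the same group thus came from different RNA, and the spread within a group is not technical alone. The Tfh markers Bcl6, at 13.4 to 20.7 CPM, and Cxcr5, at 5.73 to 8.57 CPM, were present at modest levels, and Icos, at 203 to 416 CPM, and Il21, at 82.9 to 213 CPM, at higher ones. In bulk RNA, more cells of a type and more RNA per cell cannot be told apart.

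Of Ifitm1, Ifitm2 and Ifitm3, Ifitm1 was the most abundant in the E4BP4-cKO-labelled libraries and stood furthest apart between the groups. It had 445 and 491 CPM in the E4BP4-cKO-labelled libraries, against 75.98 and 69.2 CPM in the wild-type-labelled ones. The groups did not overlap, and the libraries of each group lay close to each other. The means were 468 ± 32.3 and 72.6 ± 4.80 CPM (SD, n = 2 each), a ratio of 6.45, with 5.86 as the lowest and 7.10 as the highest ratio between single libraries. The fitted log2 difference was 2.69 with a standard error (SE) of 0.13. Per kilobase of exon, Ifitm1 ranked 109 and 101 among all genes tested in the E4BP4-cKO-labelled libraries and 810 and 839 in the wild-type-labelled ones.

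Ifitm3, the member best known for restricting influenza virus, followed at a smaller distance. Its levels were 181 and 141 CPM in the E4BP4-cKO-labelled libraries and 43.8 and 40.3 CPM in the wild-type-labelled ones. The groups did not overlap, and replicate 1 was the higher of the E4BP4-cKO-labelled libraries. Means of 161 ± 28.3 and 42.1 ± 2.44 CPM (SD, n = 2 each) gave a ratio of 3.83, with single pairs from 3.22 to 4.49 and a fitted log2 difference of 1.94 (SE 0.15).

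Ifitm2, the close endosomal relative of Ifitm3, showed the smallest distance of the 3. It had 96.1 and 95.4 CPM in the E4BP4-cKO-labelled libraries and 57.4 and 47.6 CPM in the wild-type-labelled ones. The groups again did not overlap, and the larger spread was between the wild-type libraries. The means of 95.7 ± 0.486 and 52.5 ± 6.93 CPM (SD, n = 2 each) stood in a ratio of 1.82, with single pairs from 1.66 to 2.02 and a fitted log2 difference of 0.87 (SE 0.12).

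**Figure D1:**
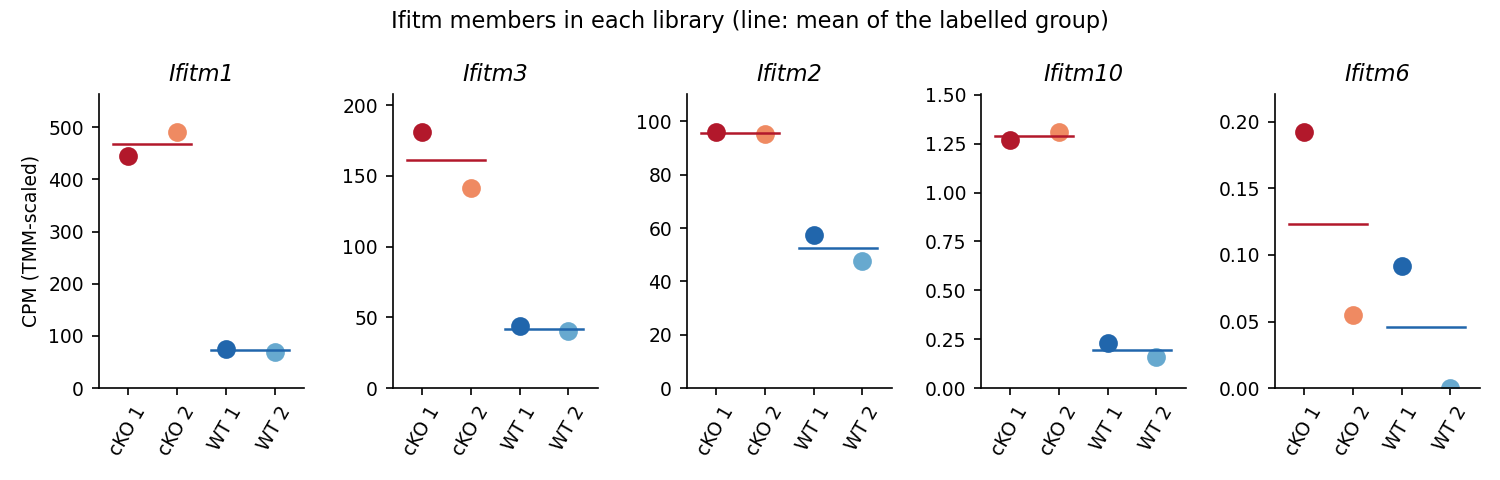
Level of each Ifitm member in each library, in CPM, with a panel and a linear axis of its own for each member and a line at each group mean. The axes differ, so heights cannot be compared between panels. Ifitm1 stands at 445 and 491 CPM against 75.98 and 69.2 CPM. Ifitm10 separates by a like ratio at a far lower level, while Ifitm2 separates least of the members that passed the filter on low counts.

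Ifitm10, a member whose role is less well known, was read at a far lower level. Its counts were 33 and 24 in the E4BP4-cKO-labelled libraries and 5 and 4 in the wild-type-labelled ones. The groups did not overlap, and the pooled ratio, adjusted for library size, was 6.77 with a 95% interval from 3.33 to 15.5 that covers counting error only. Ifitm10 passed the filter on low counts only through the E4BP4-cKO-labelled libraries, with a fitted log2 difference of 2.72 (SE 0.46). Ifitm6 had 5 and 1 counts in the E4BP4-cKO-labelled libraries and 2 and 0 in the wild-type-labelled ones, and it did not pass the filter. The groups overlapped, and the interval of its pooled ratio of 3.21 ran from 0.573 to 32.5, so no difference could be seen at this depth.

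Of the 5 members, 4 passed the filter, Ifitm10 only through the group in which it was high. For background, edgeR's quasi-likelihood test called 7.68% of all 15503 genes tested higher and 6.53% lower in the E4BP4-cKO-labelled libraries at an adjusted p under 0.05. Both E4BP4-cKO-labelled libraries lay above both wild-type-labelled ones for 34.6% of all genes tested and below both for 33.6%. Because the members were chosen on this contrast, their own calls are not counted and nothing is read from their separation. The median log2 difference over all genes tested was 0.02. Leaving out 1 library at a time moved the number of genes called higher from 1191 to between 246 (without E4BP4-cKO replicate 2) and 954 (without E4BP4-cKO replicate 1), with 528 without wild-type replicate 1 and 936 without wild-type replicate 2. The fitted differences of the members then ran from 2.62 to 2.76 for Ifitm1 and 1.74 to 2.12 for Ifitm3. They ran from 0.74 to 1.00 for Ifitm2 and 2.46 to 2.99 for Ifitm10. These refits reuse the libraries on which the members were chosen, so the ranges are a description and give no support.

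Ifitm5 and Ifitm7, other Ifitm genes of the mouse, were read at low levels. Ifitm5, known for its part in bone mineralisation, had 12 and 11 counts in the E4BP4-cKO-labelled libraries and 4 and 3 in the wild-type-labelled ones. It lies next to Ifitm2 and shares 29.7% of its exon bases with Gm45717. Its groups did not overlap, but its log2 difference of 1.79 (SE 0.57) did not pass edgeR's test (adjusted p = 0.0886). Ifitm7, on chromosome 16, had 0 and 1 counts in the E4BP4-cKO-labelled libraries and 4 and 7 in the wild-type-labelled ones. It was not tested, and the interval of its pooled ratio of 0.0971 ran from 0.00226 to 0.668, the opposite direction to the members. Its coding sequence is 89.3% identical to that of Ifitm1.

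Because the members differed by unequal amounts, the makeup of the family differed between the groups. The share of each member in the family's reads per kilobase of exon was taken within a library, so that it does not depend on library size. Ifitm1 made up 49.6% and 55.9% of this sum in the E4BP4-cKO-labelled libraries and 31.3% and 32.4% in the wild-type-labelled ones. Ifitm2 made up 17.9% and 18.1% against 39.5% and 37.2%. Neither gene's groups overlapped. Ifitm3 made up 32.5% and 25.9% against 29.1% and 30.5%, and its groups overlapped. Ifitm6 and Ifitm10 stayed under 0.05% of the sum in each library.

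**Figure D2:**
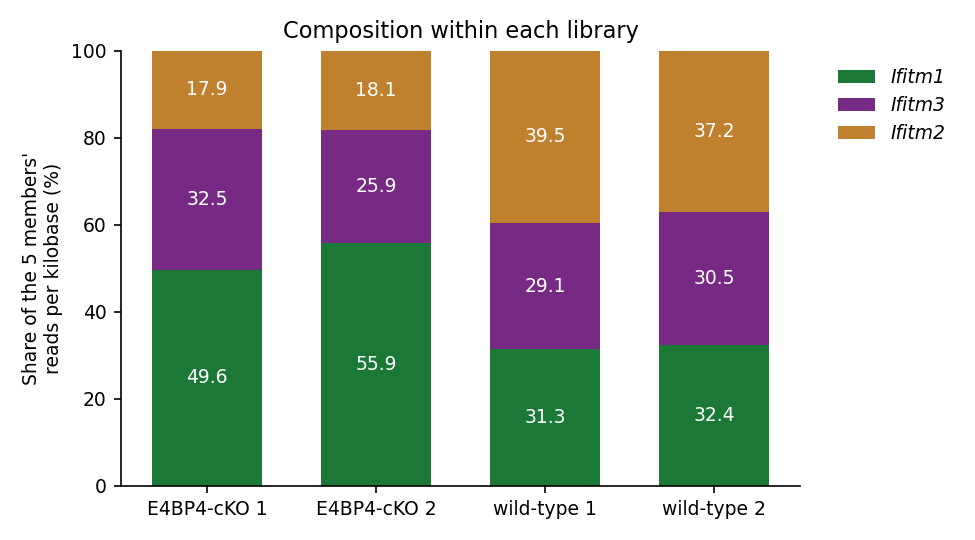
Share of each Ifitm member in the family's summed reads per kilobase of exon, in percent, as stacked bars for the 4 libraries. The Ifitm1 share is larger and the Ifitm2 share smaller in both E4BP4-cKO-labelled libraries, while the Ifitm3 share overlaps between the groups; Ifitm6 and Ifitm10 are too small to see.

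The order of the levels per kilobase depended on the exon length used for some genes. With all exon bases counted, Ifitm1 came first in the E4BP4-cKO-labelled libraries, at 407 and 449 CPM per kilobase of exon (RPKM), followed by Ifitm3 at 267 and 208 RPKM and Ifitm2 at 147 and 146 RPKM. In the wild-type-labelled ones Ifitm2 came first, at 87.6 and 72.6 RPKM, followed by Ifitm1 at 69.4 and 63.2 RPKM and Ifitm3 at 64.6 and 59.5 RPKM. The levels of Ifitm1 and Ifitm3 in the wild-type libraries overlapped, and within each wild-type library their ratio was 1.08 and 1.06. The ratio of Ifitm1 to Ifitm2 was 2.78 and 3.08 in the E4BP4-cKO-labelled libraries and 0.793 and 0.871 in the wild-type-labelled ones. When the bases that Ifitm2 shares with Gm45717 were left out of its length, a choice made after seeing the overlap, the ratio of Ifitm1 to Ifitm2 was 1.64 and 1.82 against 0.468 and 0.515. The same change put the ratio of Ifitm3 to Ifitm2 at 1.08 and 0.845 in the E4BP4-cKO-labelled libraries, so the order of those genes there is not settled. With the length of the longest transcript, the ratio of Ifitm1 to Ifitm2 was 3.44 and 3.82 against 0.983 and 1.08, so their order in the wild-type-labelled libraries is not settled either.

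Other genes of the same stretch of chromosome 7 were set beside the members. Of 36 other genes within 200 kb of the cluster, Ifitm5 among them, 19 were tested, with a median log2 difference of 0.29. By edgeR 2 of the 19 (10.5%) rose in the E4BP4-cKO-labelled libraries, against 7.68% of all genes tested. At an unadjusted p under 0.05 by edgeR 8 were higher, and DESeq2 called 3 higher. By edgeR 0 of the 19 fell, against 6.53% of all genes tested. At an unadjusted p under 0.05, 1 was lower, and DESeq2 called 1 lower. For 10 of the 19, both E4BP4-cKO-labelled libraries lay above both wild-type-labelled ones (34.6% of all genes tested), and for 3 both lay below (33.6%). Nlrp6, an innate sensor of the NOD-like receptor family, had 314 and 159 counts against 51 and 35, a log2 difference of 2.49 (SE 0.36, edgeR adjusted p = 0.0270). Pkp3, which encodes the desmosome protein plakophilin 3, had 169 and 192 CPM against 85.8 and 109 CPM, a log2 difference of 0.89 (edgeR adjusted p = 0.0306).

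The tested gene directly beside Ifitm2 was Ifitm5, whose log2 difference of 1.79 on few counts was given above, and beyond it lay Pgghg at 0.29. On the other side the nearest tested gene was B4galnt4 at 0.84. None of these passed edgeR's test, with adjusted p of 0.0886, 0.139 and 0.0654. The call of Nlrp6 held without each library in turn, while that of Pkp3 was lost when E4BP4-cKO replicate 2 or wild-type replicate 1 was left out. Around Ifitm10, 5 of 30 genes within 200 kb were tested, and 1 (20%) rose, against 7.68% of all genes tested. It was the neighbouring gene Ctsd, which encodes the lysosomal protease cathepsin D, with 511 and 398 CPM against 181 and 154 CPM, a log2 difference of 1.44 (SE 0.17, edgeR adjusted p = 0.0213) that held without each library in turn.

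**Figure D3:**
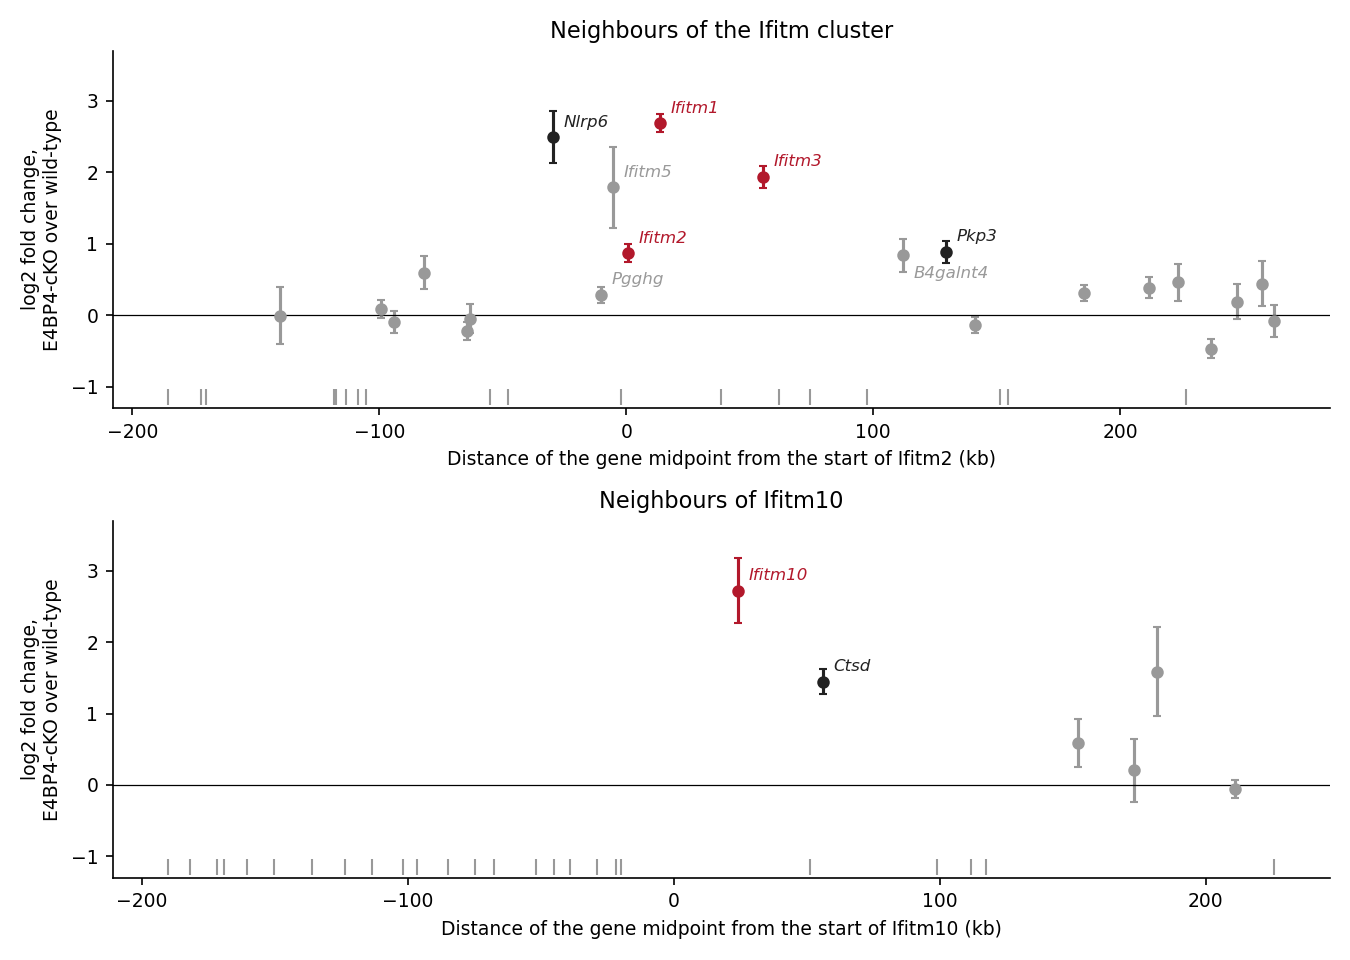
Log2 difference between the E4BP4-cKO-labelled libraries and wild-type for the tested genes around the Ifitm cluster (top) and Ifitm10 (bottom), against distance along chromosome 7 in kilobases, with bars of 1 standard error, members in red, called neighbours in black, others in grey and ticks for genes not tested. Nlrp6 at 2.49 and Ifitm5 at 1.79 are nearest in size to Ifitm1 and Ifitm3, and the median of the cluster's neighbours is 0.29.

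Interferon-stimulated genes were compared because several Ifitm genes are known to be induced by the same cytokines, which was not measured here. Of 29 tested genes of a list induced by type I interferon, 4 (13.8%) rose in the E4BP4-cKO-labelled libraries and 1 (3.45%) fell. Over all genes tested the shares were 7.68% and 6.53%. The median log2 difference of the list was 0.84. The groups of 16 of the 29 overlapped, against 4931 of all 15503 genes tested. Both E4BP4-cKO-labelled libraries lay above both wild-type-labelled ones for 12 of the 29, against 34.6% of all genes tested. Those that rose were Oasl1 (3.15), Rsad2 (2.82), Oas2 (2.51) and Oasl2 (2.45), given as log2 differences with edgeR adjusted p of 0.0426, 0.0471, 0.0484 and 0.0392. They encode the oligoadenylate synthetase family proteins and the antiviral enzyme viperin. Ifih1, which encodes the RNA sensor MDA5, fell by 1.74 on the log2 scale (edgeR adjusted p = 0.0359). With E4BP4-cKO replicate 1 left out 1 gene rose, and with replicate 2 left out 8 did. With wild-type replicate 1 left out 0 rose, and with replicate 2 left out 1 did. With limma-voom the calls of Oasl1, Rsad2, Oas2 and Oasl2 were all lost, and with upper-quartile factors that of Oas2 was.

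The E4BP4-cKO-labelled libraries differed from each other in these genes. All 29 were higher in replicate 1 than in replicate 2, with a median ratio of 2.65, against 0.998 over all genes tested. The same ratio was 0.907 for Ifitm1, 1.01 for Ifitm2, 1.28 for Ifitm3 and 0.969 for Ifitm10. Oasl1 had 13.6 and 3.82 CPM in the E4BP4-cKO-labelled libraries, and Ifit1 had 24.5 and 2.46 CPM. Relative to the wild-type mean, the list had a median log2 value of 1.34 in replicate 1 and 0.17 in replicate 2. Ifitm1 stood at 2.62 and 2.76 on that scale and Ifitm3 at 2.11 and 1.75. In replicate 1, 6 of the 29 genes stood above Ifitm1, and in replicate 2, 0 of the 29 did. The difference between the members and the list is a description of 2 libraries and was not tested.

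**Figure D4:**
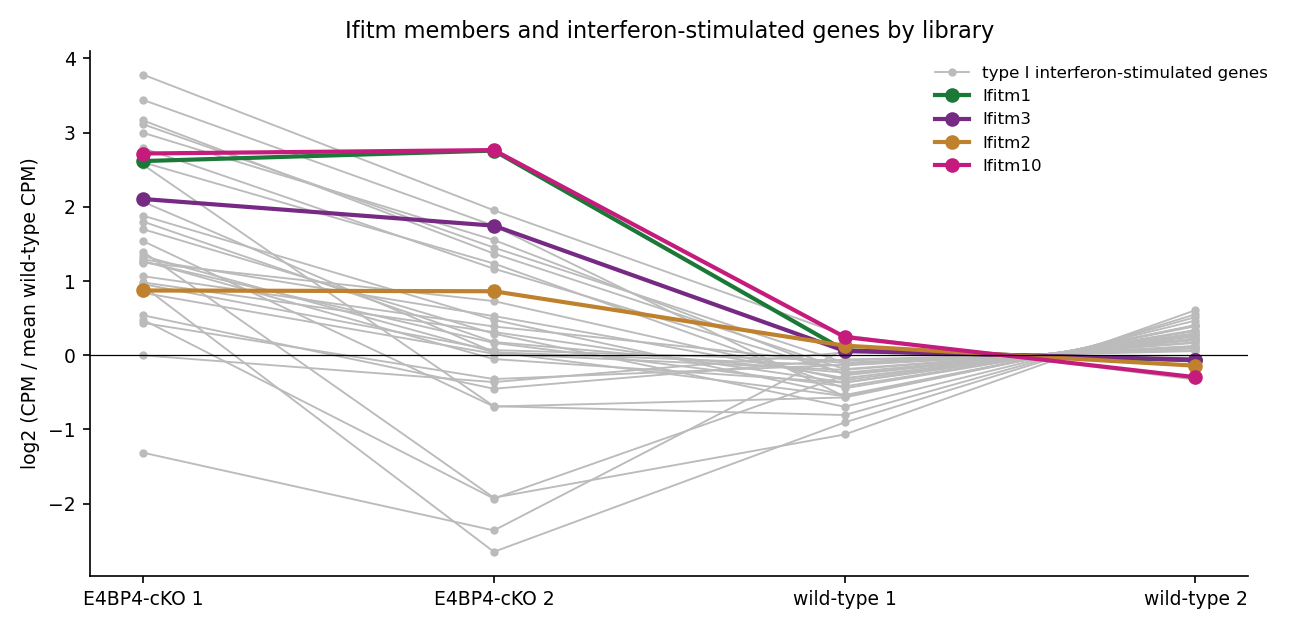
Log2 of the CPM over the wild-type mean in each library for the 29 type I interferon-stimulated genes (grey) and for Ifitm members (coloured). The grey values have a median of 1.34 in E4BP4-cKO replicate 1 and 0.17 in replicate 2, while Ifitm1 stands at 2.62 and 2.76; the joined points carry no order of the replicates.

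Genes induced mainly by interferon-γ, against which the culture medium held antibody, formed a second list. Of 20 tested, 2 (10%) rose and 1 (5%) fell, against 7.68% and 6.53% of all genes tested. The median log2 difference of the list was 0.05. Gbp7 rose by 0.65 (edgeR adjusted p = 0.0344) and Tgtp2 by 1.21 (adjusted p = 0.0451), both guanosine triphosphatases of cell-autonomous defence, while the related Gbp5 fell by 0.70 (adjusted p = 0.0499), a call lost with upper-quartile factors. With E4BP4-cKO replicate 1 left out 1 rose and 3 fell. With wild-type replicate 1 left out 0 rose, and 0 fell when any library other than E4BP4-cKO replicate 1 was left out.

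Among receptors and signalling genes of the interferon pathways, 5 of 21 tested (23.8%) rose and 1 (4.76%) fell. Over all genes tested the shares were 7.68% and 6.53%. The median log2 difference of the list was 0.39. Irf8, a transcription factor of the interferon regulatory family, had 162 and 317 CPM against 64.7 and 66.3 CPM (log2 1.87, edgeR adjusted p = 0.0301). The interferon-γ receptor chains Ifngr2 (1.47, adjusted p = 0.0366) and Ifngr1 (1.13, adjusted p = 0.0419) rose, as did Socs3 (1.25, adjusted p = 0.0372), a feedback inhibitor of cytokine signalling, and Stat3 (0.78, adjusted p = 0.0476), which carries IL-6 and IL-21 signals and whose call was lost without TMM factors. Irf2, which competes at interferon response elements, fell by 0.50 (adjusted p = 0.0391). With E4BP4-cKO replicate 1 left out 6 rose, and with replicate 2 left out 1 did. With wild-type replicate 1 left out 0 rose, and with replicate 2 left out 5 did. The call of Irf2 was lost when any single library was left out, and Jak2, a kinase of the interferon-γ receptor, fell in its place when E4BP4-cKO replicate 1 was.

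Proteins that bind or modify IFITM proteins formed a further list of 10 genes, of which 1 (10%) rose and 1 (10%) fell. Over all genes tested the shares were 7.68% and 6.53%. Nedd4, a ubiquitin ligase that acts on IFITM3, had 192 and 189 CPM against 85.5 and 106 CPM (log2 0.99, edgeR adjusted p = 0.0252). Fyn, a kinase that phosphorylates IFITM3, had 248 and 252 CPM against 545 and 447 CPM and fell by 0.99 (edgeR adjusted p = 0.0270). Both calls were lost when E4BP4-cKO replicate 2 or wild-type replicate 1 was left out. Of the other CD225 family genes, 4 of 9 in the table were tested, and 1 (25%) rose, against 7.68% of all genes tested. It was Prrt1, with 2.46 and 7.97 CPM against 0.320 and 0.824 CPM (log2 3.14, edgeR adjusted p = 0.0498). Prrt1 and Ifitm5 would not have passed the filter on low counts on the wild-type-labelled libraries alone. Ifitm7, higher in those libraries, was not tested. The share called thus comes partly from genes let in by the group in which they were high. The call of Prrt1 was lost when any library other than E4BP4-cKO replicate 1 was left out, and with upper-quartile factors or limma-voom.

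Markers of other cell types moved with the groups, and since many cell types express Ifitm genes their values stand beside those of the members. The 13 T cell markers summed to 5333 and 5700 CPM in the E4BP4-cKO-labelled libraries and 6288 and 5968 CPM in the wild-type-labelled ones, and Lat alone fell by edgeR. Of those 13, 0 rose by edgeR, with 2 higher at an unadjusted p under 0.05 and 1 called higher by DESeq2, and 2 rose when E4BP4-cKO replicate 1 was left out. Macrophage and monocyte markers summed to 544 and 341 CPM against 129 and 68.1 CPM, and 7 of 14 rose, against 7.68% of all genes tested. The most abundant of that list, Ly6c2, had 129 and 66.5 CPM against 38.4 and 14.99 CPM, and Fcer1g had 90.6 and 71.3 CPM against 16.9 and 8.32 CPM. Mast cell and basophil markers summed to 2589 and 1928 CPM against 1050 and 136 CPM. Of 11 tested, 5 rose, against 7.68% of all genes tested. Among these, Tpsb2 (125 and 29 counts against 1 and 5) and Mcpt4 (37 and 17 against 5 and 7) passed the filter on low counts only through the E4BP4-cKO-labelled libraries. So did the called macrophage marker Fcgr1 (71 and 23 against 1 and 1), and the shares called are thus partly set by the filter. The macrophage and monocyte markers that rose numbered 4 when either E4BP4-cKO-labelled library was left out, 10 without wild-type replicate 1 and 9 without wild-type replicate 2. For mast cells and basophils the number was smaller when either E4BP4-cKO-labelled library was left out and larger when either wild-type-labelled library was. Lat was no longer called when E4BP4-cKO replicate 2 or wild-type replicate 1 was left out.

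The mast cell and basophil sum differed 7.71-fold between the wild-type libraries, in which the ratio was 1.10 for Ifitm1, 1.09 for Ifitm3 and 1.21 for Ifitm2. Neutrophil markers summed to 89.4 and 44.3 CPM against 15.1 and 9.93 CPM. Of 4 tested, 2 were higher, against 7.68% of all genes tested. Csf3r, 1 of the 2, passed the filter on low counts only through the E4BP4-cKO-labelled libraries (19 and 23 counts against 1 and 0). The most abundant neutrophil marker, Ly6g, had 1245 and 540 counts against 110 and 229. S100a8 had 172 and 4 counts against 0 and 0, and Retnlg was at 0 in each library. B cell markers summed to 115 and 53.1 CPM against 396 and 404 CPM. Of 10 tested, 2 fell, Ighm and Igkc, against 6.53% of all genes tested. More fell when E4BP4-cKO replicate 1 was left out. Dendritic cell markers summed to 86.8 and 58.5 CPM against 77.3 and 109 CPM. Of 5 tested, 2 were higher, against 7.68% of all genes tested. Fewer were higher when either E4BP4-cKO-labelled library or wild-type replicate 1 was left out. Natural killer cell markers summed to 13.2 and 26.4 CPM against 28.7 and 42.6 CPM, with Ncr1 at 0 in each library. Of its 2 tested markers edgeR called 0, with 0 at an unadjusted p under 0.05 and 0 called by DESeq2. Between the E4BP4-cKO-labelled libraries, the macrophage and monocyte sum differed 1.60-fold and the neutrophil sum 2.02-fold, and the ratio was 0.907 for Ifitm1, 1.01 for Ifitm2 and 1.28 for Ifitm3. The part of these cell types in the Ifitm values was not tested.

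**Figure D5:**
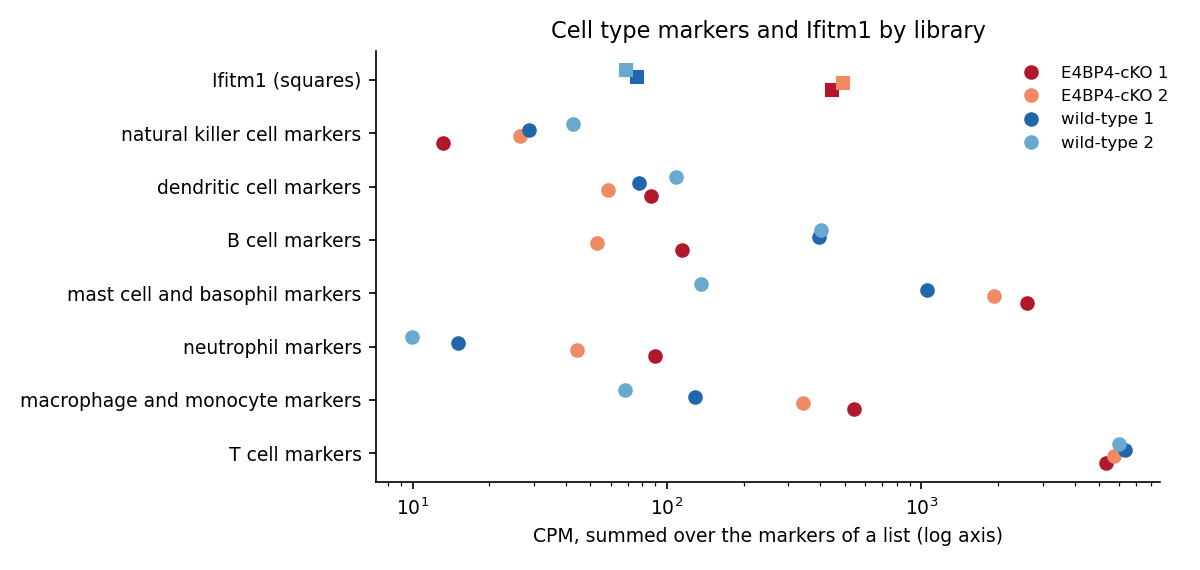
Summed CPM of marker lists for 7 cell types in the 4 libraries, on a log axis, with Ifitm1 as squares. Macrophage and monocyte, neutrophil, and mast cell and basophil sums are higher in both E4BP4-cKO-labelled libraries, B cell sums are lower, and the T cell sums lie between 5333 and 6288 CPM.

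The likeness of each member's pattern to that of other genes was measured as the root mean square difference of log2 CPM over the 4 libraries, centred within each gene. The genes nearest to Ifitm1 were Adamtsl1 (0.0815), Cd72 (0.0830) and Fzd4 (0.0884). Those nearest to Ifitm2 were Idh1 (0.0134), Rab37 (0.0200) and Vat1 (0.0384). P2ry14 (0.0809), Arhgef10l (0.0812) and Mmp25 (0.0892) lay nearest to Ifitm3. Between the members themselves the difference ran from 0.209 for Ifitm1 and Ifitm10 to 0.910 for Ifitm1 and Ifitm2. Each of the 3 abundant members lay nearer to these genes outside the family than to another member. The genes outside the family were far more numerous, so nothing is read from this order. With 4 libraries many genes fall near any pattern, and these values are a description.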

How the data were processed

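Per the submitters' processing notes, CASAVA, HISAT2, featureCounts and the mm10 build were used, and the deposited counts are whole numbers of reads per gene, not normalised. The sources used here give no annotation, strand setting or treatment of multi-mapped reads. Groups came from the genotype labels. Counts were scaled to CPM with TMM factors (0.962 to 1.04). Genes passing edgeR's filterByExpr (15503 of 28039 with a count) were tested with edgeR 4.0.16 (glmQLFit, glmQLFTest) in R 4.3.3, two-sided, without covariates, Benjamini-Hochberg adjusted over all of them and called under 0.05. Exact permutation of 2 against 2 libraries cannot go below p = 0.333, so none was run. Log2 differences are E4BP4-cKO over wild-type. RPKM used GENCODE M21 exon lengths on GRCm38, the same assembly as mm10. Floors were 3 counts per library, and intervals are exact 95% conditional binomial ones and cover counting error only. The test was checked on simulated counts.

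The members and all gene lists were chosen with earlier results of these data known. Genes were named by rule. These were the Ifitm genes, up to 4 genes per list with the lowest p, every gene in counts of 5 or fewer and adjacent tested genes. The 3 nearest patterns per member and up to 4 most abundant markers were also named, and some markers are shown only in the sums. Fcgr1 was named for how it passed the filter. Alternatives were no TMM, upper-quartile factors, no filter, DESeq2 1.42.0, limma-voom 3.58.1, a replicate block and leaving out each library.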

Additional observations from a re-analysis of the deposited data

How the results depend on the processing

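Ifitm1, Ifitm2, Ifitm3 and Ifitm10 kept their direction in 10 of 10 alternatives, within 2.60 to 2.76, 0.74 to 1.00, 1.74 to 2.12 and 2.46 to 2.99 on the log2 scale. Without single libraries the ranges were 2.62 to 2.76 for Ifitm1, 0.74 to 1.00 for Ifitm2, 1.74 to 2.12 for Ifitm3 and 2.46 to 2.99 for Ifitm10. The alternatives reuse the libraries on which the members were chosen, so the kept direction is a description and gives no support. Ifitm6 and Ifitm10 are limited by depth. The cause of the changes below was not tested. All genes called higher (1191) became 2680 with no filter and 1834 with DESeq2, and 246 to 954 without single libraries. All genes called lower (1013) became 1636 with no TMM, 2237 with no filter and 1676 with DESeq2, and 74 to 806 without single libraries. Type I interferon-stimulated genes higher (4) became 22 with no filter, 10 with DESeq2, 0 with limma-voom, and 0 to 8 without single libraries, and those lower 0 to 2. Interferon-γ-induced genes higher (2) became 6 with no filter and 0 to 2 without single libraries. Those lower (1) became 0 with upper-quartile factors, 3 with no filter and with DESeq2, and 0 to 3 without single libraries. Receptor and signalling genes higher (5) became 9 with no filter, 8 with DESeq2 and 0 to 6 without single libraries. Those lower (1) became 2 with no TMM, no filter, DESeq2 and limma-voom, and 0 to 1 without single libraries. Partners and modifiers higher (1) became 3 with no filter and with DESeq2, those lower 2 with no filter, and both 0 to 2 without single libraries. The CD225 gene became 0 with upper-quartile factors and limma-voom, and 0 to 1 without single libraries. Cluster neighbours lower (0) became 1 with no TMM, no filter and DESeq2, and 0 to 1 without single libraries, those higher 1 to 3. Ifitm10 neighbours higher (1) became 3 with no filter. Prr33, within 200 kb of Ifitm10 but farther off than Ctsd, at 0.20, ran from -0.23 to 0.68 when single libraries were left out. It reversed to -0.23 when E4BP4-cKO replicate 2 was left out and to -0.15 when wild-type replicate 1 was. With longest-transcript lengths, the mean shares in the libraries labelled E4BP4-cKO and wild-type were 58.0% and 36.7% for Ifitm1. They were 15.97% and 35.6% for Ifitm2, with 27.7% for Ifitm3 in wild-type. The order of Ifitm1 and Ifitm2 thus turned in the wild-type means. Within the wild-type libraries their ratio was 0.983 in replicate 1 and 1.08 in replicate 2, so it turned in replicate 2 alone. With unshared exon bases, a choice made after seeing the data, the mean shares were 46.9% and 25.2%, 27.1% and 51.3%, and 23.5%.

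Same-numbered libraries deviated together with a correlation of 0.0578 across 15503 genes, so the numbers were taken as names only. With the replicate number as a block, type I interferon-stimulated genes higher became 1 (Oasl2, Rsad2 and Oas2 were lost), interferon-γ-induced genes higher 1 (Tgtp2 was lost) and lower 2, receptor and signalling genes lower 2, and partners and modifiers higher 2.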
